A study of Homo sapiens with 6 samples.

Results

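Oxidative phosphorylation subunits are the proteins of the mitochondrial inner membrane that carry electrons from food molecules to oxygen and make ATP. Their transcripts were followed in A-498 cells, an established human renal cell carcinoma line, after treatment with zebularine. A probe set, the group of oligonucleotides that reads 1 transcript region on the array, was a member if the array annotation gave it exactly 1 gene symbol of the families NDUFA, NDUFB, NDUFC, NDUFS, NDUFV, UQCR, COX4 to COX8 or ATP5, or the symbol SDHA, SDHB, SDHC, SDHD or CYC1. The rule uses names and no measured value. It found 107 of 22277 probe sets, for 74 genes. Of these genes 66 encode subunits, with 28 in complex I, 3 in complex II, 7 in complex III, 13 in complex IV and 15 in complex V. The other 8 are 5 complex I assembly factors (NDUFAF genes), the complex V inhibitor ATP5IF1, the antisense RNA NDUFB2-AS1 and the pseudogene ATP5MC2P1. SDHB, NDUFA4 and COX4I2, among others, are not analysed here.

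The study compared 3 cultures kept with 1000 µM zebularine for 120 h and 3 untreated cultures (0 µM) taken at the same time. Treatment began on day 1, and the cells were passaged on days 3 and 5. Both groups grew as monolayers in RPMI-1640 with 10% FCS, and each culture gave 1 Affymetrix array from RNA with an integrity number above 9.0. The samples are numbered 1 to 3 in each group, and the sample descriptions of a zebularine and an untreated array of the same number share a prefix. Such a pair is called an experiment here, and each experiment gives 1 difference. All cultures are of 1 cell line, and p-values measure the spread between them.

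In the respiratory chain, complex I oxidises NADH and complex II oxidises succinate, and both pass electrons to ubiquinone. Complex III hands them through cytochrome c to complex IV, which reduces oxygen, and the proton gradient built on the way drives the rotary ATP synthase, complex V. All subunits of complex II and most of the others are encoded in the nucleus, and the rest in mitochondrial DNA. Clear cell kidney tumours commonly lack VHL and lean on glycolysis. Zebularine is a cytidine analogue that inhibits DNA methyltransferases.

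Array medians ran from 126.5 to 134.4 signal units with zebularine and from 117.9 to 140.8 untreated. Both arrays of experiment 3 had dimmer maxima, at 28721 (zebularine) and 31176 (untreated), against 66290 to 71174 on the other 4. The ratio of 3′ to 5′ signal of GAPDH, which rises when RNA or labelling is incomplete, was 1.34, 1.16 and 1.01 with zebularine, against 1.52, 1.19 and 1.07 untreated. The same ratio of ACTB was 5.25, 2.06 and 1.49 with zebularine, against 3.10, 2.38 and 1.71 untreated. The GAPDH ratio was lower on the zebularine array in each experiment, while that of ACTB was lower in experiments 2 and 3 and highest of all 6 arrays on zebularine 1. The part of these ratios in the differences below was not tested. Of 10 renal carcinoma and epithelial marker genes on the array 9 were bright enough to test, among them KRT8, KRT18, PAX8, VIM and CA12, while EPCAM was not. Of the 9, 6 were lower with zebularine and 3 higher. CDH6 was called lower, with mean signals of 162 with zebularine and 1400 untreated (limma, adjusted p = 0.0206). KRT19 was higher, with means of 290 with zebularine and 114 untreated, but was not called (limma, adjusted p = 0.251). All 9 marker genes of leukocytes, endothelium and fibroblasts on the array were too dim, with mean signals between 17.6 and 64.4. In cultures, fewer cells with a transcript and less of it per cell cannot be told apart.

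Differences of the subunit transcripts between zebularine and untreated cultures were small, and more of them were negative than positive. The clearest was that of ATP5F1C, the gamma subunit that turns inside the ATP synthase head, with signals that differed by -34.3% at its brightest probe set. Of 107 member probe sets 99 passed the filter on dim signals (a signal of 78.5 on at least 3 arrays), for 70 genes. Tested with limma and adjusted (Benjamini-Hochberg) over the 13548 probe sets that passed, 0 of the 99 had an adjusted p under 0.05, and the smallest was 0.251. The same rule called 0.62% of all tested probe sets. At an unadjusted p under 0.05 the test found 11 member probe sets lower (11.1%, against 6.64% of all tested) and 0 higher (against 5.93%). The 3 pairs of arrays deviate together, so the fit was repeated with the experiment as a block. That fit called 3 of the 99 member probe sets (3.03%), while 4.23% of all tested probe sets were called, 2.32% of all being called lower. All 3 read ATP5F1C, and all 3 were lower. By gene, 1 of the 64 tested subunit genes was called lower with the block, against 2.28% of all tested genes. These shares lie near those over all tested probe sets and genes.

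Subunit differences were narrow. The 64 tested subunit genes, each read by its tested probe set with the highest mean signal, differed by -0.88 to 0.46 on the log2 scale, where 1 is a doubling. Of the 64, 40 were lower and 24 higher on average, with a median of -0.06 beside -0.01 for all 7939 tested genes. Only 6 of the 64 (9.38%) differed by more than 0.5 in either direction, against 28.7% of all tested genes. The standard error of 1 member probe set was 0.25 at the median. By gene it was 0.245 at the median for the subunits, against 0.309 for all tested genes. The comparison with all tested genes was not matched for signal or standard error. The 95% interval of the difference lay within 1 log2 unit of 0 for 55 subunit genes, so a doubling or halving lies outside it. It reached past -1 for the other 9, namely NDUFA1, NDUFA10, NDUFA7, NDUFB11, CYC1, UQCRC2, ATP5F1C, ATP5F1D and ATP5MC1.

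**Figure D1:**
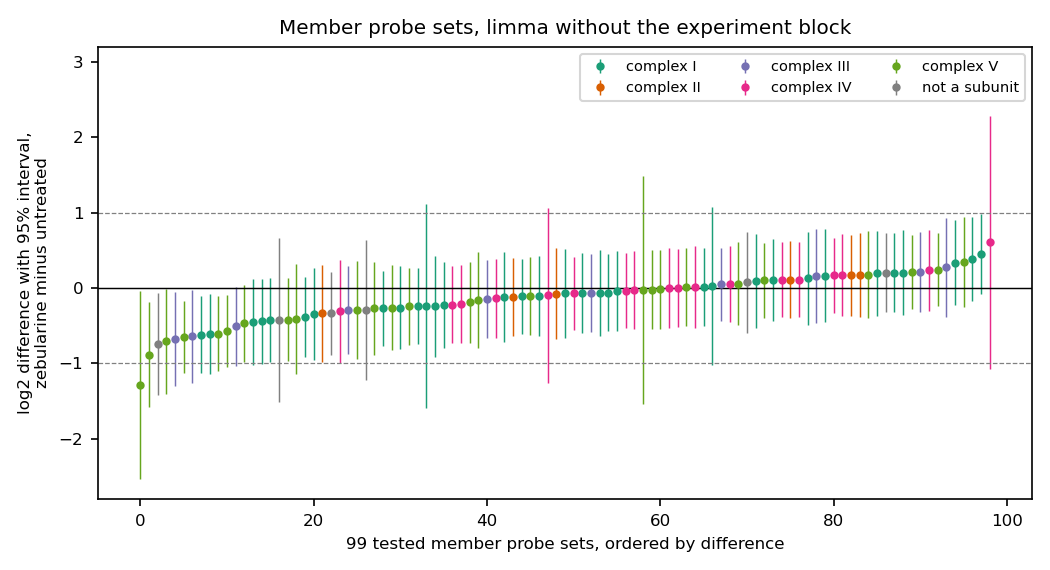
Log2 difference (zebularine minus untreated, vertical axis) of the 99 tested member probe sets, ordered by size and coloured by complex; points are limma estimates and bars 95% intervals, with dashed lines at a doubling and a halving. Most intervals span 0, and 11 lie wholly below it at the left, while none lies wholly above it.

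Agreement between experiments was counted next. Of the 99 tested member probe sets, 32 (32.3%) were lower on the zebularine array in all 3 experiments, against 21.8% of all tested probe sets, and 14 (14.1%) were higher in all 3, against 20.9%. All 3 zebularine signals lay below all 3 untreated signals for 14 members (14.1%, against 8.88% of all tested). They lay above all 3 for 4 members (4.04%, against 8.72%). Several probe sets can read 1 gene, so these counts do not rest on separate transcripts. By gene, 22 of 64 subunit genes were lower in all 3 experiments, 10 were higher in all 3 and 32 were mixed. Of all tested genes, 22.0% were lower in all 3 and 21.5% higher in all 3.

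**Figure D2:**
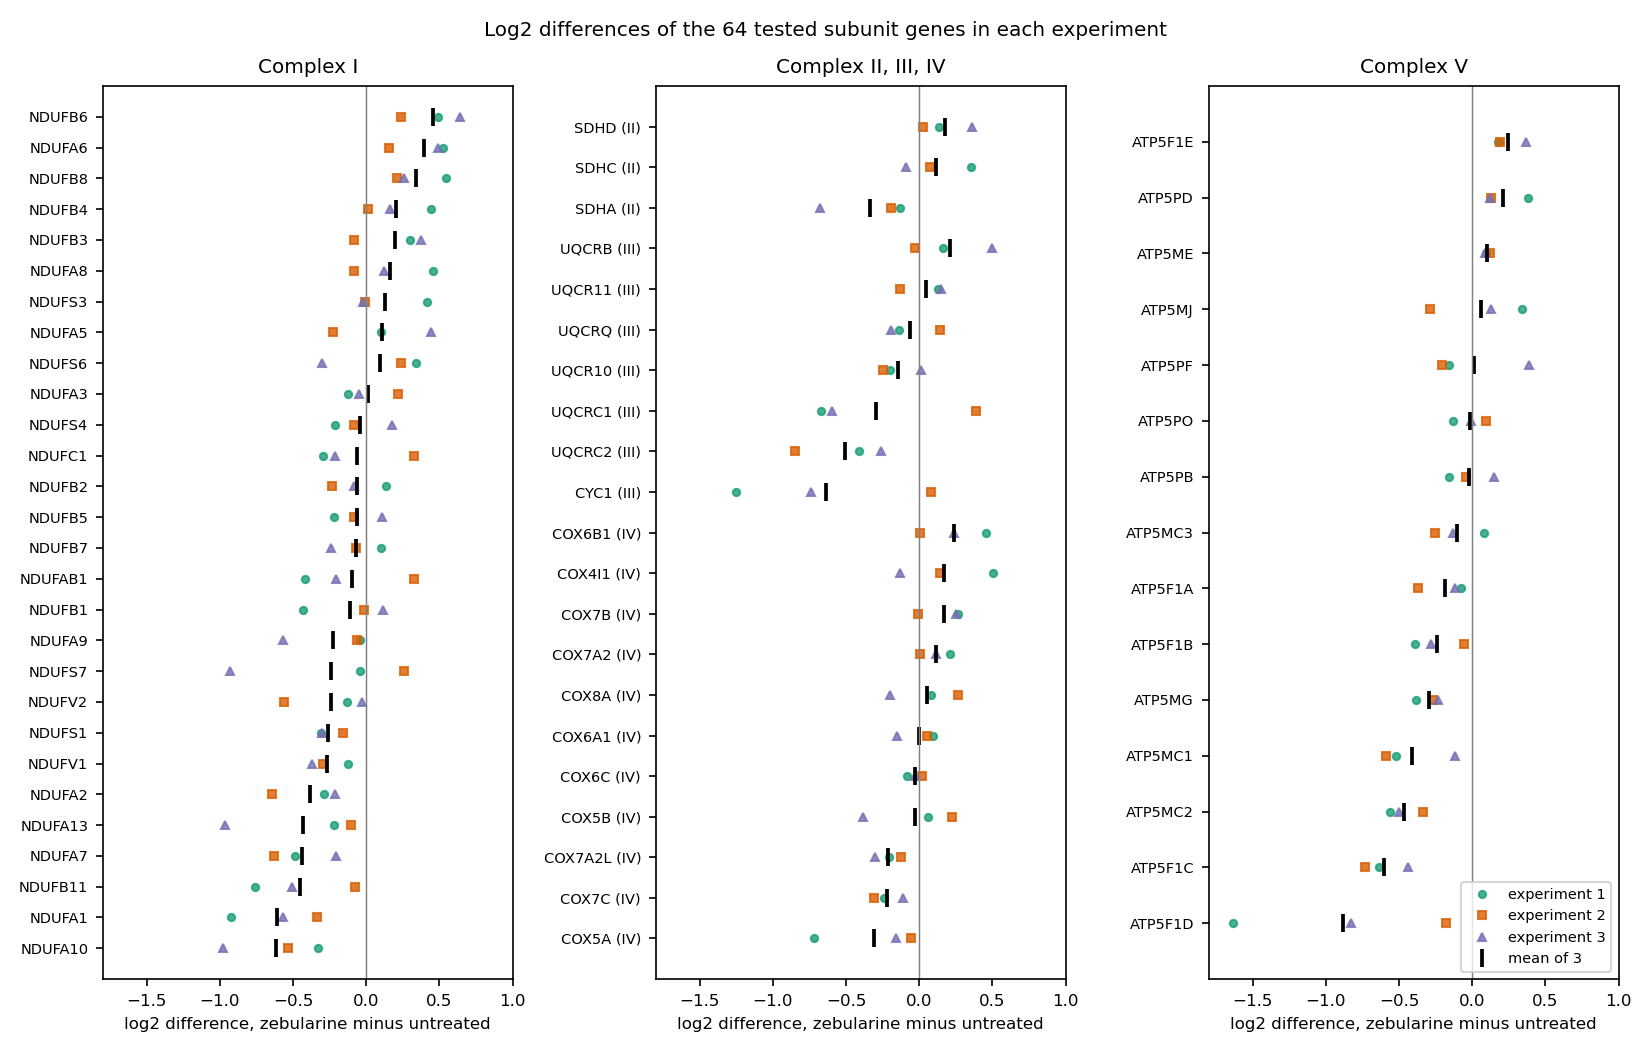
Log2 difference (zebularine minus untreated, horizontal axis) of each tested subunit gene in experiments 1, 2 and 3, with the mean as a black bar; genes are ordered by the mean within each complex. Most genes lie within 0.5 of 0, ATP5F1D and CYC1 spread widely between experiments, and ATP5F1C is lower by a like amount in each.

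By complex, the medians were -0.07 for complex I (28 genes), 0.11 for complex II (3 genes), -0.14 for complex III (7 genes), 0.00 for complex IV (11 tested genes) and -0.10 for complex V (15 genes). In experiments 1, 2 and 3 the complex I median was -0.13, -0.08 and -0.15, and that of complex V was -0.16, -0.20 and -0.12. These were below 0 in each experiment, as was that of complex III at -0.20, -0.03 and -0.20. Complex II stood at 0.14, 0.02 and -0.09, and complex IV at 0.08, 0.01 and -0.13, so both changed sign between experiments. The median of all tested genes was -0.02, 0.00 and 0.00. Single arrays moved these medians: without untreated 2 that of complex V was 0.03, and without zebularine 1 those of complexes I, III and V were -0.02, -0.03 and -0.02. Each of these omissions leaves the other array of the pair in a fit without the block. With the block and without both arrays of experiment 1, the medians of complexes I, III and V were -0.02, -0.11 and -0.17. That of complex V was -0.07 with the block and without experiment 2. Zebularine 1 is the array with the highest ACTB ratio, and whether that ratio bears on the medians was not tested.

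**Figure D3:**
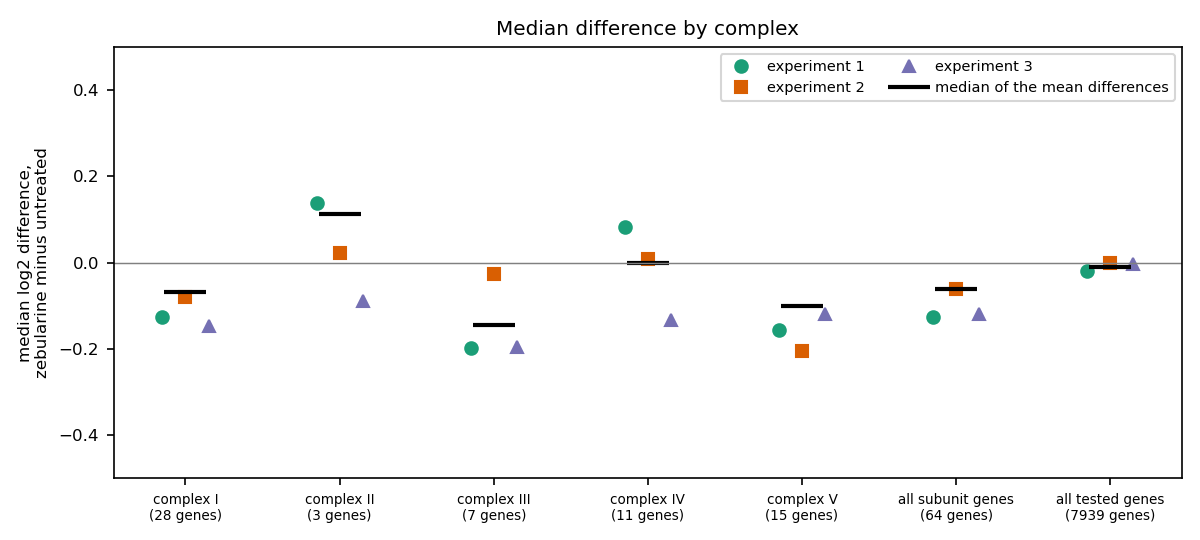
Median log2 difference (zebularine minus untreated, vertical axis) over the tested genes of each complex in experiments 1, 2 and 3, with the median of the mean differences as a black bar. All medians lie between -0.20 and 0.14, and those of complexes I, III and V are below 0 in each experiment.

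In complex I none of the 28 subunit genes was called in either fit, 18 were lower and 10 higher. The nuclear-encoded core subunits, among them those that hold the flavin and iron-sulfur centres, were represented by 5 genes. NDUFS8, another such gene, is read only by probe sets with several symbols and so is no member. NDUFV1, which binds NADH and flavin, had signals of 1235, 1229 and 1086 in zebularine cultures, against 1350.5, 1514 and 1411 in untreated cultures, and the groups did not overlap. Its difference was -0.27 ± 0.23 (SE; limma, adjusted p = 0.68). NDUFV2, an iron-sulfur subunit beside it, had 1529.8, 1367 and 1634 in zebularine cultures, against 1677, 2028 and 1671 in untreated cultures, again without overlap, a difference of -0.24. The iron-sulfur subunit NDUFS1 differed by -0.26, with -0.31, -0.16 and -0.30 in experiments 1, 2 and 3. NDUFS3 and NDUFS7, which belong to the module that reduces ubiquinone, differed by 0.13 and -0.24. For NDUFS7 this rests on experiment 3, where the difference was -0.93 against -0.05 and 0.26 in experiments 1 and 2.

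Among accessory subunits of complex I the largest negative differences were those of NDUFA10 and NDUFA1. NDUFA10, on the matrix side of the membrane arm, had 1223, 1158 and 1004 in zebularine cultures, against 1545, 1686 and 1997 in untreated cultures. Every zebularine signal lay below every untreated one, and the difference was -0.62 ± 0.24 (limma, adjusted p = 0.307 unblocked and 0.122 blocked). NDUFA1, a small membrane subunit encoded on the X chromosome, had 3106, 2996 and 3066 in zebularine cultures, against 5902, 3781 and 4554 in untreated cultures. The zebularine signals were nearly equal, while the untreated ones spread. Its difference was -0.61 ± 0.24 (limma, adjusted p = 0.324 unblocked and 0.0763 blocked, and 0.034 blocked and without experiment 2). The last of these fits called 1024 of all tested probe sets. NDUFB11, another X-linked membrane subunit, differed by -0.76, -0.08 and -0.51 in experiments 1, 2 and 3. NDUFA13, also known as GRIM-19, had 3019, 3298 and 1932 in zebularine cultures, against 3514, 3554 and 3779 in untreated cultures, without overlap and with the lowest signal in experiment 3. NDUFA2 and NDUFA7, small subunits of the matrix arm, differed by -0.38 and -0.44, negative in each experiment.

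The largest positive differences in complex I were those of NDUFB6 and NDUFA6, without passing the test. NDUFB6, a subunit of the membrane arm, had 3709, 4048 and 3436 in zebularine cultures, against 2637, 3434 and 2197 in untreated cultures. The groups did not overlap, and the difference was 0.46 ± 0.25 (limma, adjusted p = 0.482 unblocked and 0.161 blocked). NDUFA6 gave opposite readings: its brighter probe set had 4746, 5327 and 4122 in zebularine cultures, against 3289, 4785 and 2924 in untreated cultures, a difference of 0.39, while a dimmer one differed by -0.35. NDUFB8 and NDUFB4, both of the membrane arm, differed by 0.34 and 0.20 and were higher in each experiment at their brightest probe sets. The other tested probe sets of NDUFB8 differed by 0.21 and, at a dim one, -0.24. NDUFAB1, the mitochondrial acyl carrier protein, had 6829, 10298 and 7358 in zebularine cultures, against 9124, 8211 and 8515 in untreated cultures, and its groups overlapped. NDUFB2, another membrane arm subunit, differed by -0.06 and -0.12 at its 2 probe sets. The remaining accessory genes NDUFA3, NDUFA5, NDUFA8, NDUFA9, NDUFB1, NDUFB3, NDUFB5, NDUFB7, NDUFC1, NDUFS4 and NDUFS6 lay between -0.23 and 0.20.

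Complex II, the succinate dehydrogenase that also works in the citric acid cycle, showed no called gene among the 3 measured. SDHA, the flavoprotein that oxidises succinate, had 4264, 2782 and 2048 in zebularine cultures, against 4681, 3179 and 3290.5 in untreated cultures. The zebularine array was lower in each experiment, with differences of -0.13, -0.19 and -0.68, but the groups overlapped because experiment 1 was bright on both arrays. The difference was -0.34 ± 0.30 (limma, adjusted p = 0.687), and its probe set is of a type that can bind related transcripts. SDHC, a membrane anchor, had 2196, 2324 and 2183 in zebularine cultures, against 1717, 2211 and 2321 in untreated cultures at its probe set with the highest mean. Its 4 tested probe sets differed by -0.12 to 0.17, on both sides of 0. SDHD, the other anchor, had 1204, 1628 and 1608 in zebularine cultures, against 1093, 1603 and 1247 in untreated cultures, and its groups overlapped at a difference of 0.17. A second SDHD probe set was too dim to test.

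Complex III showed its larger differences in the core proteins and cytochrome c1, a grouping made after the values were seen. CYC1, the heme protein that passes electrons on to cytochrome c, had 1954, 3906 and 3062 in zebularine cultures, against 4669.9, 3700.2 and 5122 in untreated cultures. It was lower by 1.25 and 0.74 in experiments 1 and 3 and differed by 0.08 in experiment 2, so the groups overlapped. The difference was -0.64 ± 0.28 (limma, adjusted p = 0.384 unblocked and 0.137 blocked), at -0.36 without zebularine 1. With the block and without experiment 2, the only one in which CYC1 was not lower, it was called at -0.995 (limma, adjusted p = 0.0105). That fit called 1024 of the 13548 tested probe sets and 3 of the 99 tested member probe sets. UQCRC2, a core protein of the matrix side, had 2446, 2487 and 3063 in zebularine cultures, against 3263, 4502 and 3668 in untreated cultures. These groups did not overlap, and neither did those of its second probe set, with 1011, 1724 and 1929 in zebularine cultures, against 1958, 2774 and 2552 in untreated cultures. The differences were -0.51 ± 0.24 and -0.68 ± 0.29 (limma, adjusted p = 0.411 and 0.36 unblocked, 0.141 and 0.0768 blocked).

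UQCRC1, the partner core protein, had 1232, 2197 and 1424 in zebularine cultures, against 1973, 1679 and 2164 in untreated cultures. Experiments 1 and 3 gave -0.67 and -0.60 and experiment 2 gave 0.38, the same order as for CYC1. The small subunits of complex III lay near 0, with UQCR10 at -0.14, UQCR11 at 0.05, UQCRQ at -0.06 and UQCRB at 0.21. UQCRB had 6826, 8109.6 and 7752 in zebularine cultures, against 6094, 8264 and 5491 in untreated cultures at its brightest probe set, and UQCR11 had 5066, 4635 and 5089 in zebularine cultures, against 4636, 5081 and 4590.1 in untreated cultures. For both the groups overlapped.

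Complex IV, cytochrome c oxidase, was the most even of the larger complexes in these values, with differences from -0.31 to 0.23 over 11 tested genes and none called. COX4I1, the largest nuclear-encoded subunit, had 15266, 15558 and 10600.0 in zebularine cultures, against 10778, 14074 and 11635 in untreated cultures, a difference of 0.17 ± 0.25 (limma, adjusted p = 0.826). The differences of its 3 probe sets were 0.11 to 0.61, the last at a dim one with a standard error of 0.78. The brightest of them is of the type that can bind related transcripts. COX5A had 2129, 3124 and 4791 in zebularine cultures, against 3511, 3248 and 5342 in untreated cultures, and its low value came from experiment 1, at -0.72 against -0.06 and -0.16 in experiments 2 and 3. COX5B, which binds zinc, differed by -0.10 to 0.01 over 4 probe sets. COX6B1, a subunit facing the intermembrane space, had 4723, 4810.1 and 3787 in zebularine cultures, against 3433, 4788 and 3210.2 in untreated cultures, higher in each experiment but overlapping. COX7C had 8544, 9861 and 8152 in zebularine cultures, against 10082, 12195 and 8817 in untreated cultures at its brightest probe set, lower in each experiment at -0.24, -0.31 and -0.11. That probe set is of the type that can bind related transcripts, and the other tested ones of COX7C, at -0.14 and -0.07, were lower in 2 of 3 experiments. COX6C, COX7B and COX8A, single-helix membrane subunits, differed by -0.03, 0.17 and 0.05.

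Some complex IV subunits exist as a form made in most tissues and a form of heart and skeletal muscle, and the array read pairs for COX6A and COX7A. COX6A1, the common form, had 12420.5, 11676 and 8499 in zebularine cultures, against 11647, 11229.6 and 9439 in untreated cultures, a difference of 0.00 ± 0.25 (limma, adjusted p = 0.999) that was 0.09 after quantile normalization. COX6A2, the muscle form, had 47, 51.1 and 39 in zebularine cultures, against 108, 72.9 and 51.9 in untreated cultures and was too dim to test. Its signal was lower on the zebularine array in each experiment, and the groups did not overlap. COX7A2, the common form, had 5001, 5486 and 5699 in zebularine cultures, against 4315, 5454 and 5265 in untreated cultures, a difference of 0.11. COX7A1, the muscle form, had 25.9, 33.1 and 11.9 in zebularine cultures, against 10.1, 15.3 and 6.7 in untreated cultures, below the filter on every array. COX7A2L, a relative that is found in respiratory supercomplexes, had 1853, 2351 and 2285 in zebularine cultures, against 2146, 2569 and 2820.0 in untreated cultures, lower in each experiment at a difference of -0.21.

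The COX6A pair differs in the CpG content of its promoters, the dinucleotide that DNA methyltransferases modify, which is why both are shown. Each is 300 bases of RefSeq sequence (GRCh38.p14), from 250 before to 50 after the transcript start, 5′ to 3′, with CpG in capitals. COX6A1 lies at chr12:120437863-120438162 on the + strand with 22 CpG, and COX6A2 at chr16:31428311-31428610 on the - strand with 5. Promoter methylation was not measured in the data used here.
COX6A1: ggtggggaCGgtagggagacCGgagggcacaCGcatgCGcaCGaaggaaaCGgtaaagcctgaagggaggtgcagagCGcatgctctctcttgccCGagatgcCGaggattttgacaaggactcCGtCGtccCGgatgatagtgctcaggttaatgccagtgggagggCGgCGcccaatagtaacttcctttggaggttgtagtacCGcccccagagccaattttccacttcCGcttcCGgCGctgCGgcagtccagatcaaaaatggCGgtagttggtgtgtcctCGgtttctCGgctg
COX6A2: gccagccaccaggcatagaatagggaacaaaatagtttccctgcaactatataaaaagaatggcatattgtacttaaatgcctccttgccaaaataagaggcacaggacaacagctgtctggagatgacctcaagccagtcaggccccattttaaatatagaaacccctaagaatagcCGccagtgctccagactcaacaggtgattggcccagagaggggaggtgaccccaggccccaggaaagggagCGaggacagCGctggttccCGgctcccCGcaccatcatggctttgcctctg

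In complex V, the ATP synthase, 10 of 15 genes were lower and 5 higher, and ATP5F1C was the 1 gene called with the block. ATP5F1C, the gamma subunit of the central stalk, had 6947, 7577 and 7296 in zebularine cultures, against 10820.1, 12626 and 9921 in untreated cultures at its brightest probe set. A second probe set had 5819, 5497 and 6083 in zebularine cultures, against 8782, 9487 and 9075 in untreated cultures, and another had 5481, 5736 and 5631 in zebularine cultures, against 7952, 9177 and 7942 in untreated cultures. At all 3 the zebularine signals lay below the untreated ones in every comparison of arrays. The differences were -0.60 ± 0.23, -0.65 ± 0.22 and -0.57 ± 0.22, or -34.3%, -36.3% and -32.6% in signal (limma, adjusted p = 0.296, 0.251 and 0.314 without the block). With the block ATP5F1C fell at each of them (limma, adjusted p = 0.0316, 0.0285 and 0.0474). By experiment the brightest probe set gave -0.64, -0.74 and -0.44.

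The ATP5F1C call depended on having all 3 experiments. With the block it ended without experiment 1, 2 or 3 (limma, adjusted p = 0.112, 0.068 and 0.0582 at the brightest probe set), where the difference was -0.59, -0.54 and -0.69. After quantile normalization with the block 2 of the 3 probe sets were called (limma, adjusted p = 0.0475, 0.0299 and 0.0514). All 3 are of the type marked _x_at, which can bind related transcripts, and they may share transcript sequence. The dim remaining probe set without that mark had 229, 12 and 116 in zebularine cultures, against 76.1, 104 and 71 in untreated cultures, with no common direction.

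**Figure D4:**
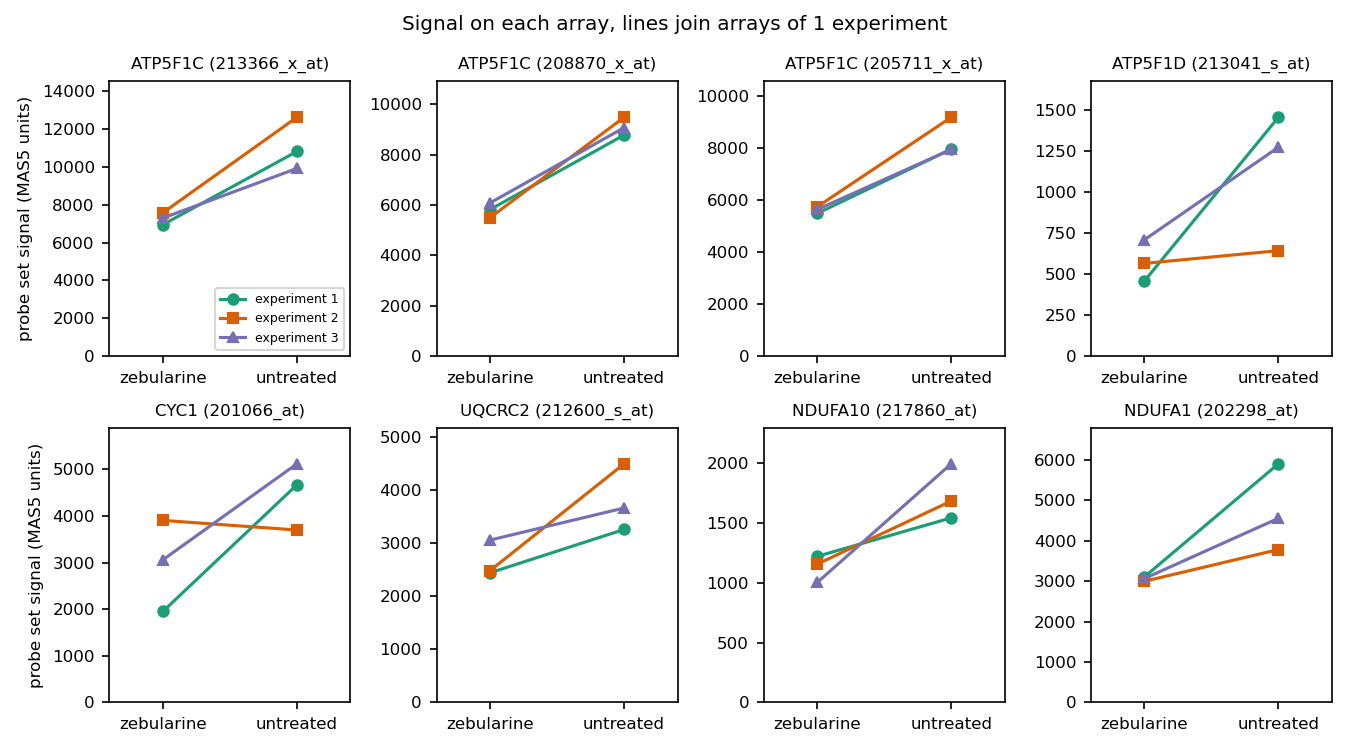
Probe set signal (MAS5 units, linear axis from 0) on each zebularine and untreated array for 8 probe sets of ATP5F1C, ATP5F1D, CYC1, UQCRC2, NDUFA10 and NDUFA1; each line joins the 2 arrays of 1 experiment. All lines of ATP5F1C, UQCRC2, NDUFA10 and NDUFA1 are lower on the zebularine side, while CYC1 in experiment 2 is not.

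The ATP5F1C promoter is shown because this is the only member gene called in the fit with the block and all arrays. It lies at chr10:7787927-7788226 on the + strand (RefSeq, GRCh38.p14), runs 5′ to 3′ from 250 bases before to 50 after the start, and holds 28 CpG. Capitals mark a match to the motif of NRF1, a factor known to bind genes of respiratory subunits, which begins 22 bases before the start.
ATP5F1C: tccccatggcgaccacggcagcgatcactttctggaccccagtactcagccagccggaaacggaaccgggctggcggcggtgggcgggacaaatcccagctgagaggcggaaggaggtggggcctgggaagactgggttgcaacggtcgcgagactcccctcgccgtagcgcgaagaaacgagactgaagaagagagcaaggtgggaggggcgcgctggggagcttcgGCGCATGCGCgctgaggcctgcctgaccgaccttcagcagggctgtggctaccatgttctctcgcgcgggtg

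The other head subunits of the ATP synthase differed in sign. ATP5F1A and ATP5F1B, the alpha and beta subunits that bind nucleotides, had 4821, 6067 and 6004 in zebularine cultures, against 5091, 7836 and 6531 in untreated cultures, and 4396, 6042 and 5304 in zebularine cultures, against 5774, 6280.4 and 6446 in untreated cultures. Both were lower in each experiment, but their groups overlapped at -0.19 and -0.24. ATP5F1D, the delta subunit, had 456, 564 and 708 in zebularine cultures, against 1454, 642 and 1272 in untreated cultures. The groups overlapped at untreated 2. Its difference was -0.88 ± 0.32 (limma, adjusted p = 0.278 unblocked and 0.0933 blocked), the largest of the subunit genes, and it varied between experiments at -1.64, -0.18 and -0.83. Without experiment 2 the block called it at -1.23 (limma, adjusted p = 0.0115), as 1 of 1024 called among all tested probe sets. Without experiment 1 it was -0.51 (limma, adjusted p = 0.494). A dim second probe set had 24.6, 63.4 and 204 in zebularine cultures, against 230.1, 118 and 297 in untreated cultures, also lower in each experiment. ATP5F1E, the epsilon subunit, had 7625, 7404 and 7224 in zebularine cultures, against 6759.5, 6483 and 5601 in untreated cultures, higher without overlap at 0.24 ± 0.23 (limma, adjusted p = 0.704).

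The c subunit, whose ring turns in the membrane as protons pass, is encoded by ATP5MC1, ATP5MC2 and ATP5MC3. ATP5MC2 had 2748, 3828 and 3244 in zebularine cultures, against 4071, 4833 and 4588 in untreated cultures, without overlap, at a difference of -0.47 ± 0.24 (limma, adjusted p = 0.446 unblocked and 0.134 blocked). ATP5MC1 had 728, 1472 and 1424 in zebularine cultures, against 1054, 2224 and 1546 in untreated cultures, lower in each experiment with overlapping groups. ATP5MC3 had 6205, 7145 and 6495 in zebularine cultures, against 5866, 8518 and 7105 in untreated cultures at its probe set with the highest mean, a difference of -0.10 that was 0.03 without untreated 2. Its other probe set differed by -0.26. The peripheral stalk genes ATP5PB, ATP5PF and ATP5PO stood at -0.02, 0.01 and -0.02. ATP5PD, the stalk subunit d, had 10051, 10488 and 9808 in zebularine cultures, against 7722, 9612 and 8999.5 in untreated cultures, higher without overlap at 0.21 ± 0.23 (limma, adjusted p = 0.75).

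Small membrane subunits of the synthase lay on both sides of 0. ATP5ME, the e subunit, differed by 0.35 and 0.10 at its 2 probe sets, higher in each experiment. Both probe sets are of the type that can bind related transcripts. ATP5MG, the g subunit, differed by -0.71 to -0.16 over 4 probe sets, and the lowest was the dimmest of them. All but that dimmest one are of the type that can bind related transcripts. ATP5MJ, a small proteolipid of the synthase, differed by -0.42 at 1 probe set and 0.06 at another.

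Members that are no subunits included the assembly factor NDUFAF3, which had 384, 867 and 709.7 in zebularine cultures, against 1074, 1215 and 876 in untreated cultures. The groups did not overlap, and its difference was -0.74 ± 0.31 (limma, adjusted p = 0.353 unblocked and 0.126 blocked), with -1.45 in experiment 1 against -0.48 and -0.30 in the others. NDUFAF1, a factor for assembly of complex I, had 560.4, 623 and 536 in zebularine cultures, against 482, 521 and 481 in untreated cultures, higher without overlap at 0.20. NDUFAF4 and NDUFAF7 differed by 0.08 and -0.42, and NDUFAF5 was too dim to test. ATP5IF1, which stops the synthase from hydrolysing ATP, had 1261, 1402 and 1567 in zebularine cultures, against 2071, 1981 and 1357 in untreated cultures, lower in experiments 1 and 2 and higher in experiment 3. NDUFB2-AS1, an RNA antisense to NDUFB2, had 79.5, 96.2 and 75 in zebularine cultures, against 35.5, 8 and 53.3 in untreated cultures, with no overlap. Only 2 of these signals passed the filter's level, so it was not tested. The probe set of the pseudogene ATP5MC2P1 differed by -0.29.

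Genes read more than once did not all give 1 direction. Of 17 member genes with several tested probe sets, 10 had all of them on 1 side of 0 and 7 had them on both sides. The widest gap was that of NDUFA6, at -0.35 and 0.39. Of the 8 member probe sets left untested, 4 belonged to genes that another probe set covered.

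The promoters of subunit genes held the motifs of known respiratory gene factors more often than promoters in general, as a description with no test. RefSeq promoters (GRCh38.p14) were found for 57 of 66 subunit genes, in 70 windows of 300 bases, since some genes have several starts. Windows of 1 gene can overlap and hold the same match, so the shares do not rest on separate promoters. Both strands were searched. The NRF1 motif, GCGCA and GCGC parted by any 1 base, was in 13 of the 70 windows, or 18.6%. That compares with 7.8% of the 14057 windows of genes on the array and 5.8% of all 35116. The ETS or GABP motif CCGGAAG was in 27.1% (19 windows), against 13.1% and 10.3%. The YY1 motif AAGATGGCG was in 12.9% (9 windows), against 2.8% and 1.7%. The CREB motif TGACGTCA was in 5.7% (only 4 windows), against 2.6% and 1.8%. The median CpG count was 21.5 in subunit windows, against 22 for genes on the array and 14 for all windows. Promoters of ATP5F1B, ATP5F1D, ATP5MC3, COX6C, COX7A1, CYC1, NDUFB5, SDHC and UQCRB were not used here.

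Genes around the respiratory chain were set beside the subunits by lists. None of their tested genes was called without the block, where 0.642% of all 7939 tested genes were. With the block 3 of 137 fell (2.19%), against 2.28% of all tested genes called lower and 4.45% called in either direction, so the share is near that of all genes. Of all tested genes 50.7% were lower, with a median of -0.01. Of 21 tested assembly factors (5 of the 22 on the array being NDUFAF members) 13 were lower and 8 higher with a median of -0.11, and none was called. LRPPRC, which stabilises mitochondrial mRNA, and TMEM70, which helps build the ATP synthase, differed by -0.40 ± 0.27 and 0.29 ± 0.26. Of 12 tested nuclear regulators of mitochondrial genes 7 were lower with a median of -0.09, and none was called. The brightest were YY1, a transcription factor, at 0.19 and TFB2M, a mitochondrial transcription factor, at -0.43. The coactivator PPARGC1A and GABPA were too dim to test.

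Of 15 tested genes of pyruvate dehydrogenase and the citric acid cycle 12 were lower with a median of -0.08, none called. The malate dehydrogenase MDH2 and DLD, a dehydrogenase shared by several of these complexes, differed by -0.15 and -0.04. The mitochondrial ribosome had 25 lower and 23 higher among 48 tested genes, a median of -0.06, and none called. MRPL33 and MRPL3, proteins of its large subunit, differed by 0.46 and -0.28.

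Each list with a call had 1. Among 15 tested import genes, with a median of -0.04, TOMM20, a receptor of the outer membrane, had 4688, 6045 and 6553 in zebularine cultures, against 7229.6, 9439.7 and 8857 in untreated cultures, without overlap. It fell with the block by 0.57 (limma, adjusted p = 0.0481, and 0.365 without), but was not called with quantile normalization as well (limma, adjusted p = 0.0568) or without experiment 1, 2 or 3 (limma, adjusted p = 0.169, 0.0858 and 0.117). Its difference was -0.53 with quantile normalization and -0.54, -0.53 and -0.63 without experiment 1, 2 or 3. Among 8 carriers and pores, with a median of 0.02, UCP2, an inner membrane carrier of the uncoupling protein family, had 523, 537 and 1572 in zebularine cultures, against 4424, 1302 and 4207 in untreated cultures. Its groups overlapped, because untreated 2 was below zebularine 3. With the block UCP2 fell, at -1.90 ± 0.48 (limma, adjusted p = 0.00634 blocked and 0.111 unblocked). Its blocked call held without experiment 1, 2 or 3, at -1.33, -2.23 and -2.15. Among 18 glycolysis and lactate genes, with 13 lower and a median of -0.27, PKM, the pyruvate kinase, had 5107, 5073 and 4099 in zebularine cultures, against 9798, 6788 and 6925 in untreated cultures, without overlap. PKM fell with the block by 0.70 (limma, adjusted p = 0.0308, and 0.263 without), but was not called without experiment 1 or 3 (limma, adjusted p = 0.18 and 0.0957), at differences of -0.59 and -0.68. GAPDH and LDHA, a glycolytic dehydrogenase and the lactate dehydrogenase, differed by -0.07 and 0.03.

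**Figure D5:**
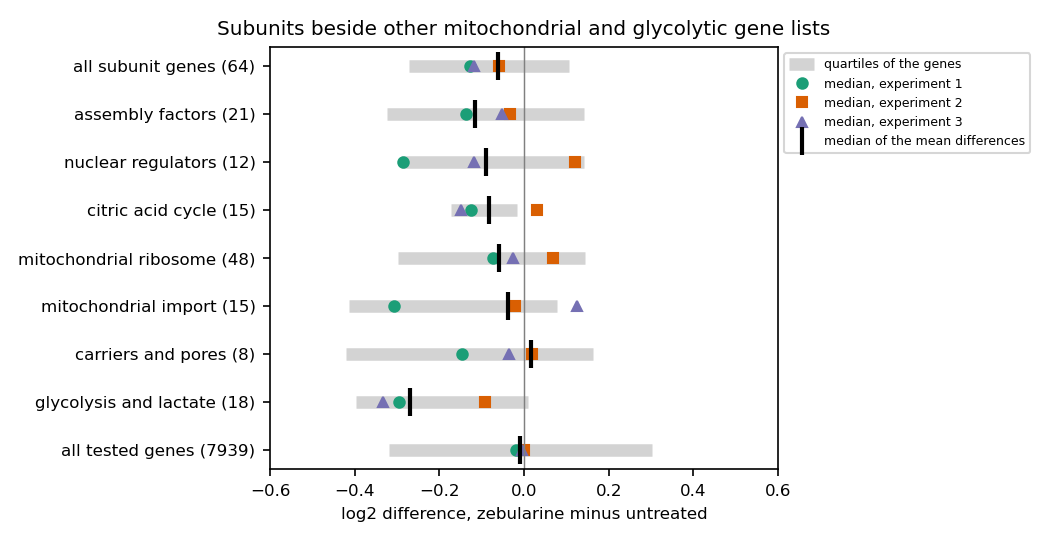
Median log2 difference (zebularine minus untreated, horizontal axis) of the subunits, 7 other gene lists and all tested genes in experiments 1, 2 and 3, with the median of the mean differences as a black bar, the quartiles of the genes as grey bars and the number of genes in brackets. The list of glycolysis and lactate has its 3 medians at -0.30, -0.09 and -0.33, and its median of the mean differences at -0.27. The medians of the mean differences of the other lists lie between -0.11 and 0.02. In single experiments the medians of the other lists lie between -0.307 and 0.125, both of mitochondrial import.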

How the data were processed

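Each array came as 1 linear intensity per probe set, deposited by the authors and made with MAS5 per the submitters' processing notes. No MAS5 version or scaling target is named in the labels. The trimmed mean of each array was close to 499.8, so the arrays had been scaled alike. From these, log2(signal + 16.3) was taken, with the median of all values divided by 8 as pseudocount, so changes of dim genes are understated. Control probe sets (62) were left out, and 13548 probe sets with a signal of at least 78.5, the 40th percentile, on 3 of 6 arrays were tested. The test was limma 3.58.1, run in R 4.3.3 (mean-variance trend, two-sided, Benjamini-Hochberg over all tested probe sets, adjusted p under 0.05), which was tested on simulated data. Symbols came from the platform annotation (19070 probe sets with 1, 1043 with several, 2164 with none). All 107 members were matched by Entrez number to RefSeq, which changed 0 symbols.

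Arrays carry replicate numbers in their titles. Deviations from the group mean correlated between the 2 arrays of a number at 0.32, 0.21 and 0.27, so the numbers were taken as pairs. The experiment as a block, pseudocounts, filters, normalizations, no trend, probe set type and leaving out arrays or experiments were alternatives. The members, lists and tests were chosen with earlier results of these data known. Named members are those called in either fit, the 2 largest positive and 2 largest negative differences with 1 sign in all experiments and the 2 highest mean signals of each complex, all SDH genes, CYC1 and the paralogue sets. In other lists they are called genes or the 2 with the highest mean signal. Further members were named after their values were seen. No 2 arrays shared more than 0.198% of equal values. The 6 arrays limit the precision. Python 3.11.15 with matplotlib 3.10.9 made the figures.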

Additional observations from a re-analysis of the deposited data

How the results depend on the processing

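Without the replicate block 84 of all tested probe sets and 0 members were called. With the replicate block the counts were 573 and 3, and with the block and quantile normalization together, chosen after seeing the data, 595 and 2. The count over all probe sets was 55 with the pseudocount divided by 4, 42 with no filter and 6 with no trend, each with 0 members. Leaving out 1 array, or 1 experiment in the fit with the block, gave 0 to 1024 probe sets and 0 to 3 members. The lowest was without zebularine 2. The fit with the block and without experiment 2 gave the 1024 of 13548 probe sets and the 3 of 99 members, which were CYC1, NDUFA1 and ATP5F1D. For each of these genes the experiment left out was the one with the smallest difference in size. Under these omissions the median of the subunit genes ran from -0.153 to -0.008 and that of complex I from -0.160 to -0.020. Complex II ran from -0.020 to 0.161, complex III from -0.236 to -0.026, complex IV from -0.062 to 0.110 and complex V from -0.236 to 0.032. The difference of COX6A1 was 0.086 after quantile normalization, with or without the block, and 0.021 after median centring. When arrays or experiments were left out it ran from -0.107 to 0.166. That of ATP5MC3 ran from -0.236 to 0.032, NDUFAB1 from -0.314 to 0.058, NDUFB2 from -0.199 to 0.154, SDHC from -0.020 to 0.212 and UQCR11 from -0.002 to 0.138. The cause of these changes was not tested. Among settings with all arrays, 238 of 243 differences of 27 named members kept their direction and side of the threshold, the exceptions being those of COX6A1 and ATP5F1C. The block alone, the filters and no trend cannot change a difference, so in these settings only the side of the threshold could move. The replicate block changed no other named member's call.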
